A study of Mus musculus with 3 samples.

Results

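The high-tag distal PNST only peaks were Twist1 ChIP-seq peaks of a mouse peripheral nerve sheath tumor (PNST) cell line that were distal by the gene distances of the deposited list, held many tags for that list, and were not overlapped by a listed peak of the embryonic tissues. A peak was taken when it was placed on a chromosome, had less than 5% of its own length overlapped by any peak of E12.5 endocardial cushions (ECCs) or E10.5 limb buds, lay above 5 Kb and at most 50 Kb from the nearer gene named in the deposited list, and held 10 or more tags. The rule gave 454 peaks of the 7538 in the PNST list and of the 67468 in the 3 lists. Of the 716 placed PNST peaks with 10 or more tags at that distance, 63.4% were PNST only, beside 83.1% of all 7259 placed PNST peaks and 81.5% of the full PNST list. Tags, overlap and distance chose these peaks, and fold enrichment and p-value come from the same reads, so all of these are given as a description with no test.

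Twist1 occupancy was measured with 5 μg of anti-Twist1 in 1 pooled sample of each tissue, all of strain FVB/N per the labels. The samples were atrioventricular canal ECCs at E12.5, forelimb buds at E10.5, both pooled over several litters, and the PNST cells, which are 1 cell line pooled from culture plates. There were no replicates, no sample without antibody is used here, and the headers of the peak lists name no control file, although the methods of the study name FVB/N genomic DNA as control. After duplicate removal the ECC library held 3149934 tags, the limb bud library 14893391 and the PNST library 11823220, and the lowest tag count of a listed peak was 5, 8 and 7. At the depth of the ECC library in particular, a site without a listed peak may still be occupied. The deposited limb bud list is longer, and was made from more reads, than the limb bud list the study describes, so PNST only refers here to the deposited lists. Because the ChIP libraries are pools of cells, how many cells carried a peak cannot be read from its tags.

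Twist1 belongs to the basic helix-loop-helix family of transcription factors, which bind as dimers to the E-box (CANNTG, with N for any base), and acts in mesenchymal progenitors such as those of the endocardial cushions and limb buds. It is also expressed in invasive tumors, among them malignant tumors of the peripheral nerve sheath. Distal peaks of such a factor are usually read as candidate enhancers, but mammalian DNA also holds repeated sequence, in dispersed copies and in tandem arrays, where a short read can match more than 1 place.

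The sequences under the peaks fell into 3 classes. A peak was in a tandem array when at least 80% of its bases matched the base a fixed shift further on (the shift of best match is 1 repeat unit or a multiple of it), and this held for 54 of the 454 peaks (11.9%, 95% Wilson interval 9.23 to 15.2%). A further 273 peaks (60.1%, 55.6 to 64.5%) were dispersed high-copy sequence, whose median 32-base word (32-mer) was found at over 100 mm9 positions on either strand. The other 127 peaks (28.0%, 24.0 to 32.3%) were of lower copy number, with a median over peaks of 29 positions. Lower-copy does not mean single-copy, as the share of a peak's 32-mers at 1 position had a median of 3.21% and a maximum of 100%. Intervals cover counting error only. The 5 peaks of highest fold enrichment with an E-box within 50 bp of the summit are shown first, from mm9, plus strand. E-boxes are in capitals. An E-box near a summit does not by itself show binding there, since E-boxes were about as frequent beside the peaks.
Dhrs2 peak, chr14:55906679-55906827: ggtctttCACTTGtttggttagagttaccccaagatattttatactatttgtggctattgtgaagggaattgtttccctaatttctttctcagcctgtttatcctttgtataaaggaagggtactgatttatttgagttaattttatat
Klf9 peak, chr19:23188651-23188805: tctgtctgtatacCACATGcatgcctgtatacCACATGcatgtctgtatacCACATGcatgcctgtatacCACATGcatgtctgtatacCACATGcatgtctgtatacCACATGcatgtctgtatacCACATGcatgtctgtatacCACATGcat
Slc22a23 peak, chr13:34447189-34447314: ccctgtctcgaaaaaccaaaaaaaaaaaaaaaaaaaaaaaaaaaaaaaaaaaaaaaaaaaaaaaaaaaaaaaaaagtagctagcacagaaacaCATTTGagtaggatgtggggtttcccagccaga
1700129C05Rik peak, chr14:59746824-59747062: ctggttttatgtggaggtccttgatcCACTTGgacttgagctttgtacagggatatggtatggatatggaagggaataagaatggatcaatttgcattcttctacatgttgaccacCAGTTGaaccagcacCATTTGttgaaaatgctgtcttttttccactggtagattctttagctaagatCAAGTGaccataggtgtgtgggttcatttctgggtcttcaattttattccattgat
Chrm2 peak, chr6:36344990-36345161: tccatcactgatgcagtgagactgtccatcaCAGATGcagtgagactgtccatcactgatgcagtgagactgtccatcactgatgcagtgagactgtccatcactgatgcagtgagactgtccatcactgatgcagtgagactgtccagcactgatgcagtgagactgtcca

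None of these 5 peaks consisted only of words found once in mm9. The share of 32-mers found at 1 mm9 position was 0% in the Dhrs2 peak, 5.65% in the Klf9 peak, 46.3% in the Slc22a23 peak, 42.3% in the 1700129C05Rik peak and 28.4% in the Chrm2 peak. The peak near Klf9, a Krüppel-like transcription factor gene, is an array with a shift of 19 bp and 8 E-boxes, while the peak in Chrm2, a muscarinic acetylcholine receptor gene, is an array with a shift of 24 bp and 1 E-box. The peak near Slc22a23, a transporter-family gene, holds a long run of A. The 2 peaks with the highest fold enrichment of all are shown next. These were chosen for printing after their values were seen, and neither holds an E-box.
Pcca peak, chr14:122968140-122968343: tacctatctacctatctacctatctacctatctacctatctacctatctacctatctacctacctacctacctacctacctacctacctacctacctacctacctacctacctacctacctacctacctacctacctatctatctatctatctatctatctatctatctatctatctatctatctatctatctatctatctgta
4921511H03Rik peak, chr5:7276825-7276917: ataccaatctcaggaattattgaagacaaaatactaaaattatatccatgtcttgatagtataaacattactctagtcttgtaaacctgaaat

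The peak in Pcca, the gene of the alpha subunit of propionyl-CoA carboxylase, is an array that matched itself best at a shift of 8 bp, and the peak near 4921511H03Rik is no array. The next 5 peaks lie near genes of cell and synaptic adhesion, axon guidance and TGF-beta signaling, and they show how dispersed copies of the same sequence come up beside different genes. The longest run common to the peaks of Cask, Dmd and Epha3 was gggtcctttcagcaaaatc, of 19 bp. Between the peaks of Tgfb2 and Pcdh11x it was 58 bp long, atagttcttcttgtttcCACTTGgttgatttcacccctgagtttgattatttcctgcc, with the E-box CACTTG.
Cask peak, chrX:13286675-13286897: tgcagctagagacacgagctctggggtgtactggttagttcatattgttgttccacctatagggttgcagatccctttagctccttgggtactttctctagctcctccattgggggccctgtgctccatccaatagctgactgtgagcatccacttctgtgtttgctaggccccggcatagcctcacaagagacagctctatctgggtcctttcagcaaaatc
Dmd peak, chrX:81570409-81570622: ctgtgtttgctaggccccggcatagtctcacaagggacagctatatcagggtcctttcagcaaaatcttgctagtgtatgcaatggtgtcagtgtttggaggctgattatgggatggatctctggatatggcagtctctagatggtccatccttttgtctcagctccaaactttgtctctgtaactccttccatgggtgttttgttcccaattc
Epha3 peak, chr16:63755063-63755226: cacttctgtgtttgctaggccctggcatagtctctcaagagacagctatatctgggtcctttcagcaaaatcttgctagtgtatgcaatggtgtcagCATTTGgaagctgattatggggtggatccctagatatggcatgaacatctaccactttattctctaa
Tgfb2 peak, chr1:188419126-188419363: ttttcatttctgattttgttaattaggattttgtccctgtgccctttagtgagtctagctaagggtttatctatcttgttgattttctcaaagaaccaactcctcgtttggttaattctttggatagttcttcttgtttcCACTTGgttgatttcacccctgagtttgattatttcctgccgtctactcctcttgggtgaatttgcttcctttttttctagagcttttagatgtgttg
Pcdh11x peak, chrX:117467778-117467937: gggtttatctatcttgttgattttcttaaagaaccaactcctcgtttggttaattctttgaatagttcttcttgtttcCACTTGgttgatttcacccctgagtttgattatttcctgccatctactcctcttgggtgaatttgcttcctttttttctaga

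Depth behind single peaks was low. The 454 peaks held a median of 11 tags (quartiles 10 and 13, range 10 to 386), and 333 of them (73.3%) held 10 to 12 tags. A total of 33 peaks had 20 or more tags and 7 had 50 or more. Median peak length was 192 bp (quartiles 172 and 223) and median fold enrichment 12.02 (quartiles 9.78 and 15.38, range 3.66 to 44.96). The p-value score of MACS, in which 50 equals a p-value of 1e-05 and 100 one of 1e-10, had a median of 63.7, with 31 peaks at 1e-10 or smaller. Some values of fold enrichment recurred, among them 15.17 in 28 peaks, 18.21 in 23, 21.24 in 14, 10.12 in 9 and 24.27 in 8.

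More tags did not go with higher fold enrichment across the limit that defined the set. The 172 PNST only distal peaks with exactly 10 tags, just inside the limit, had a median fold enrichment of 13.17, and the 296 with 9 tags, just outside, 15.005. Within the set it was 12.24 for the 103 peaks with 11 tags and 11.365 for the 58 with 12. Every listed peak had passed the p-value cut-off, which rests on tags and local background together. The order of these medians is thus not independent of the cut-off. Over all 1555 PNST only distal peaks with 7 to 9 tags (low-tag distal) the median was 15.17, and over the 262 PNST peaks of the same distance and tag range that were shared with ECCs or limb buds (shared distal) it was 26.5. The 187 high-tag PNST only peaks within 5 Kb of a gene had a median of 14.35. At the distance limits, the peak of Cyp2b23 at 4947 bp was out and that of Grk4 at 5009 bp was in, while Spin4 at 49871 bp was in and Cyp7b1 at 50108 bp was out. The largest overlap within the set was 3.50% of the Lmbrd1 peak, and the smallest that was left out was 10.2% of the Col19a1 peak.

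**Figure D1:**
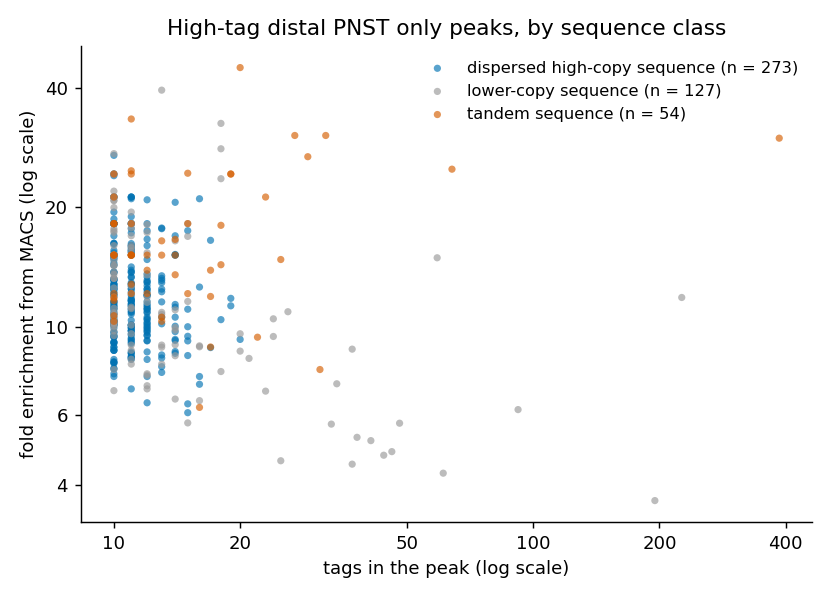
Fold enrichment from MACS (vertical, log scale) against tags (horizontal, log scale) for each of the 454 high-tag distal PNST only peaks, 1 point per peak, colored by sequence class. The dispersed high-copy peaks reach 20 tags at most, while tandem and lower-copy peaks reach 386 and 226 tags.

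The peaks with most tags were seldom of the dispersed class. Of the 10 peaks with the highest fold enrichment, 5 were tandem, 4 lower-copy and 1 dispersed, and of the 33 peaks with 20 or more tags, 22 were lower-copy, 10 tandem and 1 dispersed. Of the 45 peaks with a fold enrichment of 20 or more, 15 were tandem, 14 dispersed and 16 lower-copy. The tandem peaks had a median fold enrichment of 15.17, the dispersed and the lower-copy peaks both 11.6. Of the 31 peaks with a p-value of 1e-10 or smaller, 17 were tandem, which is 54.8% beside 11.9% of the set. The shift of best match of the tandem peaks was 4 to 93 bp, with a median of 32 bp.

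The peak in an intron of Pcca had 20 tags, a fold enrichment of 44.96 and its nearest limb bud peak 76 bp away. The peak 27339 bp from 4921511H03Rik had 13 tags in 93 bp and a fold enrichment of 39.45. The peak in intron 1 of Dock5, a guanine nucleotide exchange factor of Rac, had 11 tags and a fold enrichment of 33.38. The peaks of Pcca and Dock5 are arrays with short shifts, of 8 and 4 bp, and carry no E-box.
The peak in intron 1 of Rab7, the small GTPase of late endosomes, had 18 tags and a fold enrichment of 32.54, and 57.3% of its 32-mers occurred at 1 mm9 position. The peaks in intron 1 of Wdfy1 and 27481 bp from Bai2, an adhesion receptor gene, had 27 and 32 tags and the same fold enrichment of 30.34, in arrays with shifts of 25 and 36 bp. The remaining peaks of the 10 were those of D5Ertd579e at 29.87, Abcb11, the bile salt export pump gene, at 28.09, Dhrs2 at 27.31 and Cyp4a12a, a fatty acid hydroxylase gene, at 27.04.

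The most tags, 386, were in the D5Ertd579e peak, which is 933 bp of an array with a shift of 33 bp in intron 5 of that gene. The peak 9373 bp from Snrpe, which encodes a core protein of spliceosomal snRNPs, held 226 tags in 1652 bp at a fold enrichment of 11.87. The H2afy3 peak held 195 tags in 1779 bp and had the lowest fold enrichment of the set, 3.66. It was also the single peak with every 32-mer at 1 mm9 position. The 4932411N23Rik peak on the X chromosome followed with 92 tags, and the longer of a pair of peaks near Nfe2l2, the gene of an oxidative stress regulator, with 64 tags at a fold enrichment of 24.96. Both Nfe2l2 peaks are arrays with a shift of 26 bp. High tag counts thus occurred at both ends of the range of fold enrichment.

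Only 1 of the 454 peaks (0.220%, 0.0389 to 1.24%) consisted of words found once in mm9, and 319 (70.3%, 65.9 to 74.3%) held no such word at all. The flanks give the background of the same neighborhoods. In windows of the same length 1 Kb to lower coordinates, 94 of 452 (20.8%) consisted of single-copy words and 147 (32.5%) held none, and 1 Kb to higher coordinates these shares were 20.3% and 32.5% of 453. The median over peaks of the median number of positions was 393 in the peaks and 11 and 17 in the flanks. Reads were 50 bp long, and how reads that match several positions were placed is not given in the sources used here. Whether this placement bears on tags or on the absence of a peak in the other lists was not tested.

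Copy number was high over the PNST only peaks in general and lower in shared peaks. The median number of positions was 242 in low-tag distal peaks, 844 in high-tag PNST only peaks beyond 50 Kb, 43 in those within 5 Kb and 6 in shared distal peaks. A median word at over 100 positions was found in 61.2% of the 454 peaks (56.7 to 65.6%), 64.4% of low-tag distal, 39.6% of the near and 19.8% of the shared distal peaks. Copy number was not used by the rule, but overlap with the other lists was, so this contrast is given with no test.

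**Figure D2:**
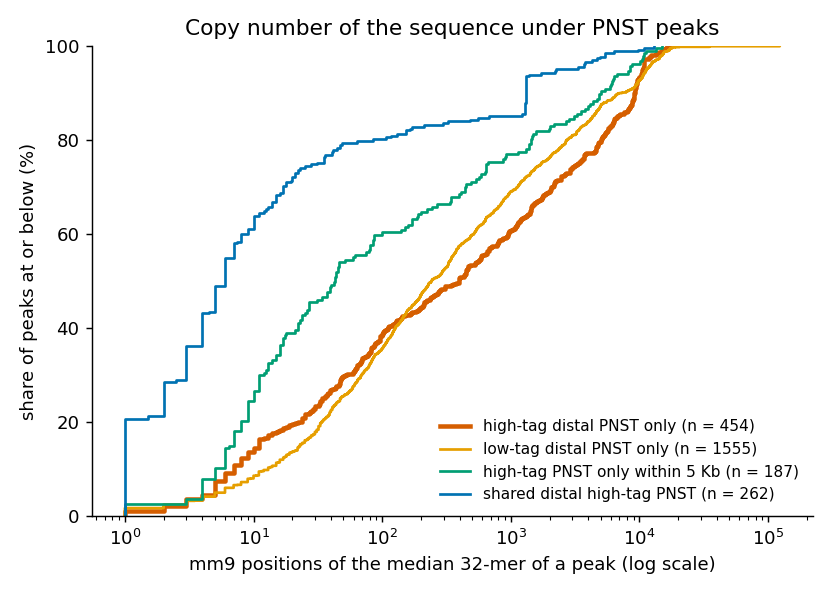
Cumulative share of peaks (vertical, %) by the number of mm9 positions of the peak's median 32-mer (horizontal, log scale), 1 line for each set of PNST peaks. The line of the 454 high-tag distal PNST only peaks lies near that of the low-tag distal peaks and to the right of that of the shared distal peaks, with medians of 393, 242 and 6.

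Many of the peaks also shared sequence with other peaks of the set. Peaks were put into 1 family when they were joined, directly or through other peaks, by 10 or more shared 32-mers. In this way 340 of the 454 peaks (74.9%) fell into 31 families and 114 stood alone. With 40 or more shared 32-mers, 207 peaks were in families and 54 in the largest. The share of flanks or of other peak sets that would group in this way is not given here, so 74.9% has no background beside it. The 4 largest families held 202, 28, 24 and 22 peaks, together 276 (60.8%), and family 1 lay on 20 chromosomes. Families are chains: 5.11% of the 20301 pairs in family 1 were joined directly, against 29.4%, 33.3% and 18.2% of the pairs in families 2, 3 and 4. The 32-mer that most peaks of a family shared is shown for each, on 1 strand, with E-boxes in capitals.
family 1: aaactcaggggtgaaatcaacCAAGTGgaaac
family 2: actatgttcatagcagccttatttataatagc
family 3: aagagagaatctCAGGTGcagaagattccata
family 4: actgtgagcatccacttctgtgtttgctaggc

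These words stood at 10800, 29962, 13137 and 27125 mm9 positions, and were shared by 14, 11, 9 and 5 peaks of their families. The word of family 1 holds the E-box CAAGTG and that of family 3 the E-box CAGGTG. In family 3, 18 of 24 peaks carried CAGGTG or its reverse complement CACCTG, which made up 91.3% of the family's 23 E-boxes. In family 1, 44 of 202 peaks carried CAAGTG or CACTTG, and 134 carried an E-box of any kind. All 28 peaks of family 2 had an E-box, 19 of them CACATG or CATGTG, while 12 of the 22 peaks of family 4 had one. Median fold enrichment was 11.4 in family 1, 14.0 in family 2, 10.465 in family 3 and 17.7 in family 4.

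Sequence of families 1, 2 and 3 was more frequent in PNST peaks elsewhere than in the other lists, and that of family 4 was more frequent than in the ECC list but not than in the limb bud list. A peak outside the set was counted when it shared 10 or more 32-mers with any peak of the family, and since the families were built from PNST peaks, the comparison between lists is a description. Family 1 sequence was found in 1751 of the 6805 other placed PNST peaks (25.7%, 24.7 to 26.8%), in 51 of 10653 ECC peaks (0.479%, 0.364 to 0.629%) and in 655 of 47664 limb bud peaks (1.37%, 1.27 to 1.48%). Family 2 sequence was found in 10.2% of the other PNST peaks, 0.591% of ECC peaks and 2.91% of limb bud peaks. For family 3 the shares were 2.40%, 0.0375% and 0.0818%. Family 4 sequence was found in 13.9% of the other PNST peaks (13.1 to 14.7%), 5.63% of ECC peaks (5.21 to 6.09%) and 17.9% of limb bud peaks (17.6 to 18.3%), 8553 peaks in the limb bud list. Median peak length was 149 bp in the PNST list, 176 bp in the ECC list and 143 bp in the limb bud list. Copies of a family are not independent of each other, and with 1 sample a tissue a difference between tissues cannot be told apart from one between libraries.

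**Figure D3:**
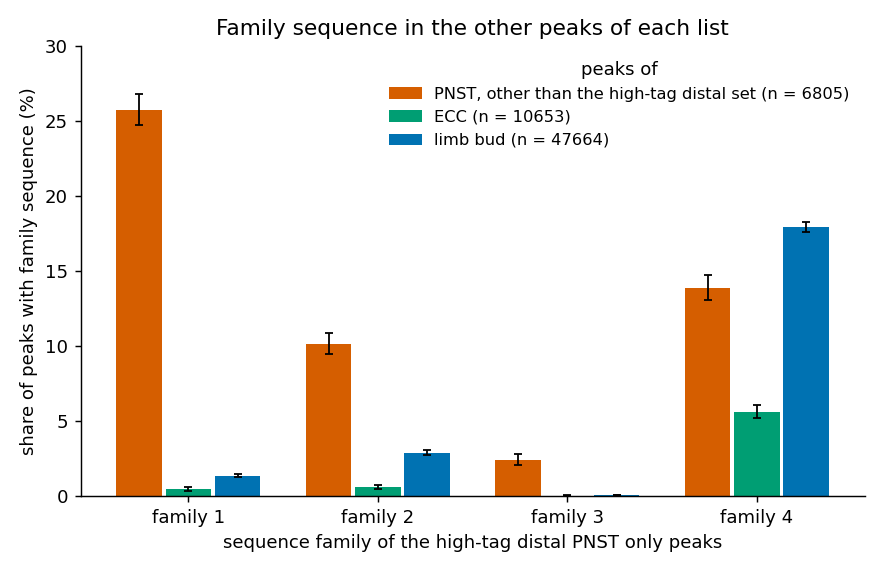
Share of peaks outside the 454 (vertical, %) that share 10 or more 32-mers with the peaks of each of the 4 largest sequence families, for the PNST, ECC and limb bud lists. Bars are shares and whiskers 95% Wilson intervals, and the limb bud bar exceeds the PNST bar for family 4, at 17.9% against 13.9%, and is below it for the other 3 families.

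A peak could therefore be PNST only by position and still hold sequence that lay under peaks of the other tissues. Of the 454 peaks, 254 (55.9%, 51.3 to 60.4%) shared a 32-mer with an ECC peak and 227 (95% interval 45.4 to 54.6%) with a limb bud peak at another place, and 299 (65.9%) with either. The flanks shared a 32-mer with ECC peaks in 42.9% and 47.5% of windows and with limb bud peaks in 43.4% and 47.2%. In the low-tag distal peaks the shares were 63.6% for ECC peaks and 69.3% for limb bud peaks. Of the 54 tandem peaks, 5 shared a word with either list, against 231 of the 273 dispersed peaks.

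E-boxes were about as frequent in the peaks as beside them. An E-box was present in 279 of the 454 peaks (61.5%, 56.9 to 65.8%), 67.4% of the windows (63.0 to 71.6%) 1 Kb to lower coordinates and 64.5% (60.0 to 68.8%) 1 Kb to higher coordinates. Within 50 bp of the summit it was present in 176 peaks (38.8%), and 119 peaks held 2 or more. Neither count has a flank share beside it here, so neither is read as a sign of binding. Per Kb of sequence there were 5.32 E-boxes in the peaks and 5.17 in the flanks. The tandem peaks stood lower, with an E-box in 12 of 54 (22.2%, 13.2 to 34.9%) and in 61.1% and 63.0% of their flanks, although arrays that did hold one repeated it, so that their density was 6.31 E-boxes per Kb. Shared distal peaks had one in 37.4% (31.8 to 43.4%) and low-tag distal peaks, which are shorter (median 144 bp), in 55.1%. Per Kb of sequence, low-tag distal peaks held more E-boxes than the set, 5.97 (flanks 5.32), and shared distal peaks fewer, 4.16 (flanks 5.55). High-tag PNST only peaks held 6.62 within 5 Kb of a gene (flanks 5.55) and 4.97 beyond 50 Kb (flanks 4.98).

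**Figure D4:**
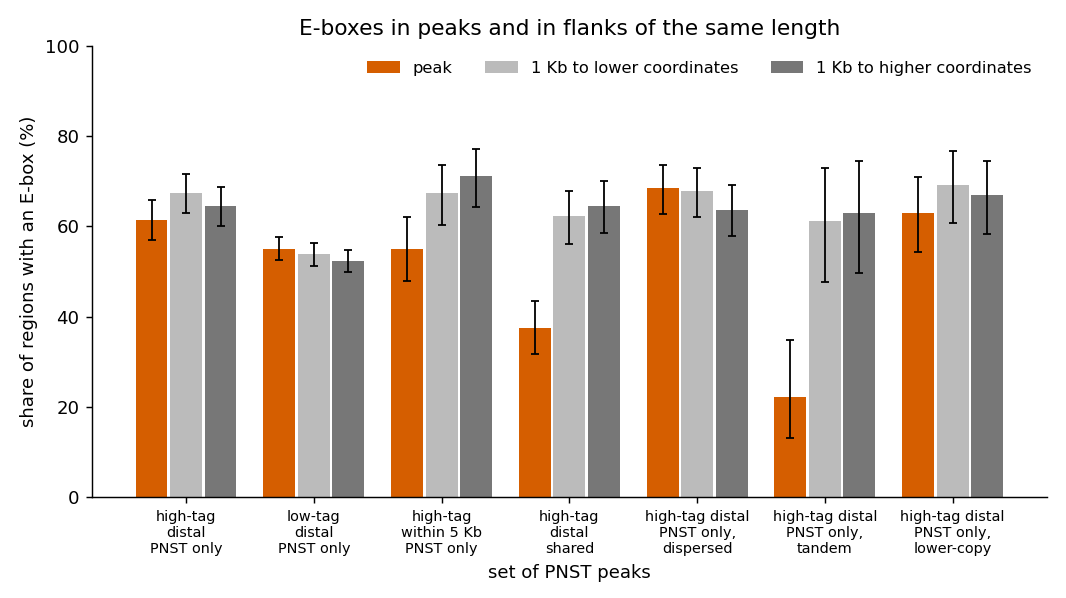
Share of regions with an E-box (vertical, %) in peaks and in windows of the same length 1 Kb to either side, for 4 sets of PNST peaks and the 3 sequence classes of the high-tag distal PNST only peaks. Bars are shares and whiskers 95% Wilson intervals; in the high-tag distal set the peak bar at 61.5% is not above its flanks at 67.4% and 64.5%, and in the tandem class it is at 22.2%.

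Most kinds of E-box had like shares in the peaks and the flanks, and 2 palindromes were lower in the peaks. Each word below stands for itself and its reverse complement, as shares of the 519 E-boxes in the peaks and the 1009 in the flanks. CAAATG made up 19.1% in the peaks and 20.5% in the flanks, CAGATG 17.9% and 17.0%, CACATG 15.2% and 15.8%, and CACCTG 13.7% and 11.8%. CAAGTG, the word in family 1, made up 12.9% and 9.5%. The palindromes CATATG and CAGCTG were lower in the peaks, at 2.3% against 5.3% and 2.7% against 5.0%. By peak, CATATG was in 2.42% of the 454 (1.36 to 4.29%) and in 6.61% and 4.63% of the flank windows, and CAGCTG in 1.76% (0.896 to 3.44%) and in 4.85% and 5.95%. The AP-1 site TGANTCA was in 4.19% of the peaks and in 3.96% and 6.17% of the flanks, and the half-site AGGTCA of nuclear receptors in 11.7%, 11.9% and 10.8%, on either strand.

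The 454 peaks lay mostly between genes. By GENCODE protein-coding genes of mm9, 296 summits (65.2%) were intergenic, 157 (34.6%, 30.4 to 39.1%) intronic and 1 exonic, in Gm9846. The low-tag distal peaks were alike, at 65.5% intergenic and 34.3% intronic. The label distal was checked against transcription start sites: 15 peaks (3.30%) had a protein-coding start site within 5 Kb, 2 of them within 1 Kb, and 336 (74.0%) had one within 50 Kb. The deposited distance matched the lower edge of an exon of the named gene, within 1 bp, for 340 of 439 genes on the side of higher coordinates and 154 of 432 on the other side, and a start site for 111 and 3. A start site can itself be the edge of an exon. The deposited distance can thus not be read as a distance to a start site, and 135 peaks named the same gene on both sides.

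Peaks of the other tissues were near. A limb bud peak lay within 1 Kb of 57 of the 454 peaks (12.6%) and an ECC peak within 1 Kb of 9 (1.98%), and either lay within 10 Kb of 246 (54.2%, 49.6 to 58.7%). Among low-tag distal peaks 37.7% had either within 10 Kb. The dispersed peaks stood nearest, with either within 10 Kb for 62.6% of them, against 24.1% of the tandem peaks. Median distance in the set was 8946 bp to the nearest limb bud peak and 78002 bp to the nearest ECC peak. To the nearest peak of either tissue it was 7743 bp in the set and 15526 bp in low-tag distal peaks. It was 14593 bp in high-tag PNST only peaks within 5 Kb and 9772 bp in those beyond 50 Kb. Over all placed PNST peaks it was 9552 bp, but these include shared peaks, which the rule bars from the set. The set had the lowest median of these PNST only sets, and that of the high-tag peaks beyond 50 Kb was closest to it. Quartiles of the set (2385 and 27753 bp) and of those beyond 50 Kb (2964 and 23696 bp) overlapped widely. The limb bud list is the longest, with 48965 peaks against 10965 for ECCs.

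**Figure D5:**
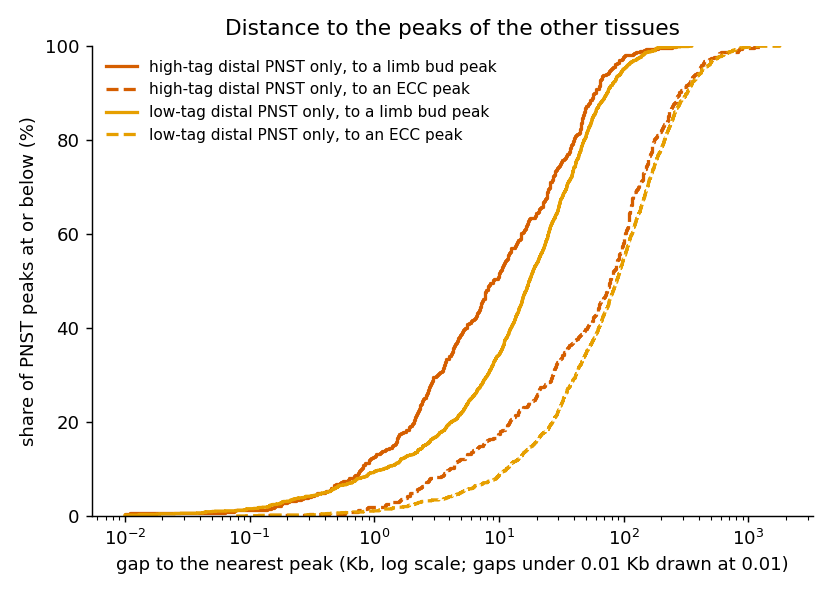
Cumulative share of PNST peaks (vertical, %) by the gap to the nearest limb bud peak (solid) or ECC peak (dashed) in Kb (horizontal, log scale), for high-tag and low-tag distal PNST only peaks. In both sets limb bud peaks are nearer than ECC peaks, and the high-tag line lies above the low-tag line at 10 Kb.

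On the X chromosome there were 41 peaks, 0.246 per Mb, against 0.167 per Mb over the autosomes, where the density ranged from 0.0945 on chromosome 17 to 0.232 on chromosome 15. The full PNST list had the same tilt, with 3.88 per Mb on the X chromosome and 2.67 on autosomes, as had the limb bud list with 23.2 and 17.7. No peak of the set lay on the Y chromosome, where the PNST list has 18 peaks. The set was scattered: 10 peaks formed 5 pairs within 1 Kb, and 63 formed 29 clusters within 100 Kb, the largest of 5 peaks.

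The peaks named 541 genes within 50 Kb, 3.70% of the 14619 genes named in the 3 lists. A single peak was near 503 of them and 2 peaks near 35. Most of these genes also had peaks in the embryonic tissues: 480 of 541 (88.7%, 85.8 to 91.1%) lay within 50 Kb of an ECC or limb bud peak, as did 87.4% of all genes near a PNST peak and 92.3% of all genes named. The 61 others were not named within 50 Kb of a listed ECC or limb bud peak. Olfactory receptor genes made up 36 of the 541 (6.65%) and 4.84% of all genes named.
Gm17019 had 4 peaks, of 44 to 61 tags at fold enrichments of 4.29 to 5.73, all lower-copy and on chromosome 5, and for 1 of them Speer8-ps1 was the nearer gene. The 3 peaks of Sntg1, which encodes a syntrophin of the dystrophin complex, and the 3 of Pcdh11x, a protocadherin gene of the X chromosome, were intronic and dispersed. Those of Sntg1 had 10, 12 and 11 tags at fold enrichments of 13.74, 12.94 and 9.95, and those of Pcdh11x 12, 10 and 13 tags at 11.09, 11.09 and 13.26.

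Genes of cell adhesion and matrix lay near the peaks at a higher share than all genes, and this held for the full PNST list as well. Of 109 such genes named in the lists, 9 (8.26%) lay near a peak of the set, beside 3.70% of all genes, and 45.9% lay near any PNST peak, beside 23.6% of all genes. They were the protocadherin genes Pcdh11x, Pcdh15 and Pcdh17, the catenin genes Ctnna3 and Ctnnd2, the matrix protein genes Tnr and Edil3, Adam10, which encodes a membrane metalloprotease, and Cask, which encodes a scaffold of cell junctions and synapses. The peaks of Pcdh15 and Cask had the highest fold enrichment, 21.24 each with 10 and 11 tags, followed by Ctnna3 at 18.21, Adam10 at 16.91 with 15 tags, for which Fam63b was the nearer gene, Pcdh17 at 15.59 and the strongest of Pcdh11x at 13.26. Of the 12 peaks near these 9 genes, 10 were dispersed high-copy sequence, all but those of Pcdh15 and Adam10, and 9 belonged to family 1. Many of these genes are long, and gene length was not set against this share, so its part was not tested. Of 57 synaptic adhesion genes 4 (7.02%, and 47.4% near any PNST peak) were near a peak: Odz4, a teneurin gene, and Dmd, the dystrophin gene, at 21.24, Dlg2 at 18.21 and Slitrk3 at 10.12.

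Genes of the guidance, nerve and signaling lists lay near the peaks at shares on both sides of that of all genes. Of 50 guidance genes, 2 had a peak, the ephrin receptor genes Epha3, with 10 tags at 21.24 in intron 3, and Epha4, with 10 tags at 11.51, also in intron 3. Of 71 Schwann cell and nerve tumor genes, 4 had one: Mbp, the myelin basic protein gene, at 15.17 and 45565 bp with Galr1 as the nearer gene, Ntrk2, the BDNF receptor gene, at 15.17 in an array with a shift of 36 bp, Met, the HGF receptor gene, at 14.32, and Pou3f2, a POU transcription factor gene, at 8.36. Each held 10 or 11 tags.
Of 61 TGF-beta and BMP genes, 3 had a peak: Fst, which encodes the activin antagonist follistatin, with 10 tags at 15.17 and Ndufs4 as the nearer gene, the ligand gene Tgfb2 with 13 tags at 10.59 and Fstl5 with 10 tags at 10.34. The single Wnt gene of 73 was Dact1, an inhibitor of Dishevelled, with 14 tags at 15.17, and the single gene of 47 of the Twist and EMT list was Snai1, which encodes a repressor of E-cadherin, with 10 tags at 13.74. The Snai1 peak lay 16620 bp from Snai1 and 6878 bp from Rnf114, a ubiquitin ligase gene. Of 67 MAP kinase and Ras genes Rapgef4 alone had one, at 7.69. The shares of 1.37% for Wnt, 1.49% for MAP kinase and 2.13% for the Twist and EMT list were below the 3.70% of all genes, and those of TGF-beta and Schwann cell genes, at 4.92% and 5.63%, were above it, with guidance genes, 2 of 50, close to it. The counts of 1 to 4 genes a list are too small to order the lists. Of the peaks near genes of these 6 lists, those of Snai1, Dact1, Tgfb2 and Epha3 had an E-box within 50 bp of the summit, as had those of Mbp, Pou3f2 and Fstl5, whereas those of Epha4, Ntrk2, Met, Fst and Rapgef4 had none there.

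Genes that the study followed up lay near 4 peaks. Of 26 genes with ChIP-qPCR primers, 3 (11.5%, beside 3.70% of all genes) were near a peak and 65.4% were near any PNST peak. The study chose these genes from peaks of these samples, so the shares are a description. The 3 genes were Cask with 1 peak in intron 3, Tgfb2 with 1 intergenic peak and Mid1, a ubiquitin ligase gene of the X chromosome, with a pair of tandem peaks of 31 and 22 tags at 7.82 and 9.43. For Cask and Tgfb2 the study names E-box-containing regions specific to PNST cells. By ChIP-qPCR it reported Twist1 binding at those regions in PNST cells and none in ECCs or limb buds. Mid1 was followed up for an intronic region shared by ECCs and limb buds, where the study reported binding in both tissues. The Cask peak held no E-box and the Tgfb2 peak 1 within 50 bp of the summit, CACTTG in the run shared with Pcdh11x. The Mid1 peaks held none and had limb bud peaks 237 and 161 bp away. No primer of these genes matched mm9 exactly within 500 bp of the peaks. The forward primer of Cask matched mm9 at 1 place, chrX:12863820-12863841, 422834 bp from the peak, and that of Tgfb2 at 1 place, chr1:190243073-190243092, 1823710 bp from the peak, each with the reverse primer within 500 bp. The nearest PNST peaks to these sites were 83164 and 232861 bp away. The reverse primer of Tgfb2 consists only of GT repeated, so its match near the forward primer places the product less firmly than that of Cask. The gene distances printed with the Cask and Tgfb2 primers in the study are those of these peaks, whereas the one printed for Mid1 is not that of either Mid1 peak. Why the primer sites in mm9 and the peaks lie apart was not tested. The 31 genes in the PNST ontology lists of the study were chosen on these samples and all lie near a PNST peak. Of these, 6 (19.4%) were near a peak of the set, as were 541 of the 3453 genes near any PNST peak. Among the 6 were Cask, Edil3, Pcdh17, Tgfb2 and Trps1, a transcriptional repressor gene, at 11.6.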

How the data were processed

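Twist1 ChIP-seq of 1 pooled sample each of ECCs, limb buds and PNST cells was used, on Illumina HiSeq2000 single reads of 50 bp. The submitters' processing notes name Bowtie and mm9. Per the file headers, the authors called peaks with MACS 1.4.2 (band width 300, p-value cut-off 1e-05, at most 1 tag per position, local background over 10000 bp, no control file). The deposited tags are raw counts per peak, not normalized for depth. The deposited p-value column is a score, 10 times the −log10 of the p-value. The deposited fold enrichment is the ratio of the summit to the local background. Lengths, summits and gene distances in bp were used as the authors deposited them.

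Peaks were read as mm9 positions, counting from 1. The 279 PNST peaks on unplaced sequence were left out. Sequence came from the NCBIM37 genome (every placed peak of the 3 lists lies on a chromosome of it and within its length) with pysam 0.24.0, and 32-mers were counted on both strands with numba 0.67.0. Families are connected components from networkx 3.6.1, and shares carry 95% Wilson intervals. Summits were placed with GENCODE vM1. The scripts for sequence measures were tested on simulated sequence with known answers. With 1 sample per tissue no test was run. The members and gene lists were chosen with earlier results of these data known. The sequence classes, families, word sharing and their thresholds were added after the data were seen, and other motifs that were looked at then are not reported. A planned share of repeat-masked bases was not computed, because the genome used holds no masked letters.

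Genes were named by rule: the 10 peaks of highest fold enrichment, the 5 with most tags, genes with 3 or more peaks, genes of the adhesion and matrix, guidance, Schwann cell, TGF-beta, Wnt, and Twist and EMT lists (values for up to 6 a list), and ChIP-qPCR genes. Synaptic, MAP kinase and ontology genes, and peaks at the limits of the rule, were named after their values were seen. The values of 1 gene of the ontology lists are not reported here. Sequences shown are the 5 peaks of highest fold enrichment with an E-box within 50 bp of the summit, of at most 300 bp, 5 list genes, and those named in the text as chosen later. Primer sequences came from the study's supplementary table. Alternatives were other tag, p-value, distance and overlap limits, E-boxes at the summit only, all gene types, the nearer gene only, and, added later, sets without tandem or high-copy peaks, neighbors counted once, and other thresholds for families and classes.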

Additional observations from a re-analysis of the deposited data

How the results depend on the processing

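No paired analysis was possible because each tissue has 1 sample. With p-values of 1e-10 or smaller the set fell to 31 peaks, with a median fold enrichment of 21.24, an E-box in 48.4%, none of single-copy words only (0%), and 38 genes, 84.2% of them near an ECC or limb bud peak. A minimum of 8 tags gave 1183 peaks, a median fold enrichment of 14.14 and 1295 genes, and a minimum of 15 gave 72 peaks, 9.82, 77 genes and 1.39% of single-copy words only. A lower distance limit of 10000 bp left 0% of single-copy words only, 29.4% inside genes and 358 genes. Within 50 bp of the summit 38.8% had an E-box.

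Alternatives added after seeing the data moved these values: without tandem peaks an E-box was in 66.8%; without peaks whose median word stood at over 100 positions, 176 peaks remained, with a median fold enrichment of 13.26, an E-box in 52.3% and 205 genes, 84.9% near an ECC or limb bud peak; with 40 shared words a family, 207 peaks were in families and 54 in the largest; and 179 peaks had a median word at over 1000 positions. The other 50 values (28 planned, 22 added) moved less than their counting interval, or, for counts, by less than 1.5 times. The comparisons with flanks, other peak sets and the other lists were not recomputed under these alternatives. The planned repeat-masked share was not run because the genome used holds no masked letters. Depth limits single peaks, of which 73.3% rest on 10 to 12 tags.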
